A study of Mus musculus with 6 samples.

Results

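The lymphoid and B cell precursors of bone marrow described here are 339 cells chosen by their transcripts from 11651 marrow cells of 2 single-cell libraries, 2.91% of them. A cell was chosen where it held at least 1 transcript molecule, counted as a unique molecular identifier (UMI), of Dntt or of Vpreb1, or at least 2 of Ebf1. A chosen cell also held no UMI of Siglech, a marker of plasmacytoid dendritic cells, and less than 0.2% of its UMIs from Elane and Prtn3, which encode granule proteases of early myeloid cells. The marrow came from EMT6 tumor-bearing mice, EMT6 being a mouse mammary carcinoma line. One library was labelled Cysltr1 KO, from mice deficient for the cysteinyl leukotriene receptor gene, and the other WT, from BALB/c controls; each came from a pool of 3 mice, and both marrows had been enriched magnetically for hematopoietic progenitors. Strain background, age and the deleted stretch of Cysltr1 are not given in the labels. With 1 library per genotype no difference between genotypes has a replicate check, no test was run, and every interval is a 95% counting interval that covers neither mice nor libraries.

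Lymphoid development in the marrow starts in multipotent progenitors that carry CD34 and the cytokine receptor FLT3 and that begin to transcribe Dntt, the gene of the template-free polymerase that adds bases at V(D)J joints. Cells that take the B lineage path switch on the transcription factor EBF1 and then PAX5, answer to interleukin 7, and recombine their heavy chain genes with the RAG nuclease. The finished heavy chain is shown on the surface with the surrogate light chain, made of VPREB and lambda 5 (Igll1), and with the signalling pair CD79A and CD79B, as the pre-B cell receptor.

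The library labelled Cysltr1 KO gave 173 chosen cells of 6394 kept, or 2.71% (2.32 to 3.13), and the library labelled WT gave 166 of 5257, or 3.16% (2.70 to 3.67). The ratio of these shares was 0.857 (0.688 to 1.07), within counting error of 1. Since both marrows had been enriched, these shares depend on the enrichment and are not frequencies in whole marrow. Depth differed, with medians of 6521 UMIs per kept cell in the KO-labelled and 13071 in the WT-labelled library, and 5367 and 9540 UMIs per chosen cell. When every cell with enough UMIs was thinned to 2000 before the choice, 100 of 5606 cells (1.78%) in the KO-labelled and 77 of 4791 (1.61%) in the WT-labelled library were chosen. Rule genes picked out 272 KO-labelled and 328 WT-labelled cells at first, of which 25 and 25 left for a Siglech UMI and 74 and 137 for Elane and Prtn3. At that limit the highest share inside was 0.193% in the KO-labelled and 0.199% in the WT-labelled library, and the lowest outside 0.203% and 0.201%. A single Dntt UMI was the whole Dntt count of 39 KO-labelled and 52 WT-labelled chosen cells. A further 15 KO-labelled and 6 WT-labelled cells, otherwise eligible, had exactly 1 Ebf1 UMI and stayed outside, while 19 and 3 had exactly 2 and were inside. The 2 libraries shared 61 cell barcodes.

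Cysltr1 itself ran against the labels. Chosen cells had 12.7 CPM (counts scaled to the same total of UMIs over all genes, summed over the cells; 13 UMIs) in the KO-labelled library and 0.985 CPM (2 UMIs) in the WT-labelled library, and other marrow cells 24.7 and 4.94 CPM. A tag outside the deleted part would check nothing, and the deleted part is not known here, so directions below are drawn between libraries as labelled.

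The label of lymphoid and B cell precursor covered a mixed set of cells. The 339 cells fell into 4 subsets by rule gene. Dntt without Vpreb1 or Ebf1 was the sole rule gene of 106 chosen cells (61.3%) in the KO-labelled library and 135 (81.3%) in the WT-labelled one. Dntt together with Vpreb1 or Ebf1 was found in 29 (16.8%; 11.5 to 23.2) KO-labelled and 9 (5.42%; 2.51 to 10.0) WT-labelled cells. Vpreb1 without Dntt marked 16 KO-labelled and 21 WT-labelled cells. Ebf1 alone, at 2 or more UMIs, marked 22 (12.7%; 8.14 to 18.6) KO-labelled cells and 1 (0.602%; 0.0153 to 3.31) WT-labelled cell. An Hlf UMI, of a transcription factor gene used in stem and multipotent cells, was seen in 32 chosen cells (18.5%) of the KO-labelled library against 101 (60.8%) of the WT-labelled library. The shares with Ebf1 only and with Dntt plus Vpreb1 or Ebf1 were thus higher in the KO-labelled library, and the shares with Dntt alone and with Hlf lower, with counting intervals that did not overlap at these unequal depths. With thinning to 2000 UMIs before the choice the intervals overlapped. Dntt alone then marked 81 of 100 KO-labelled (71.9 to 88.2%) and 70 of 77 WT-labelled cells (82.2 to 96.3%), and Dntt with Vpreb1 or Ebf1 14 (7.87 to 22.4%) and 2 (0.316 to 9.07%). Ebf1 alone marked 1 KO-labelled and no WT-labelled cell, and an Hlf UMI was seen in 7 (2.86 to 13.9%) and 15 (11.3 to 30.1%). Only 2 of the 22 KO-labelled cells with Ebf1 only had 2000 UMIs.

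**Figure D1:**
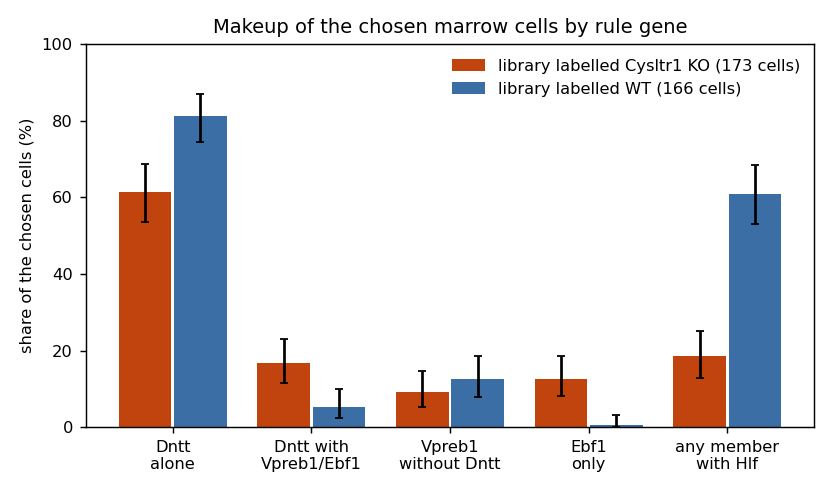
Share of the chosen marrow cells in each rule-gene subset, and share with an Hlf UMI, in percent (vertical axis), for the library labelled Cysltr1 KO (orange) and the library labelled WT (blue); bars are shares and lines 95% Clopper-Pearson counting intervals. Dntt alone reaches 61.3% in the KO-labelled and 81.3% in the WT-labelled library, and Hlf 18.5% and 60.8%.

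Genes that took no part in the rule were then used to look for B lineage transcripts in the chosen cells. Cd79a, Cd79b and Ighm among them are also used by later B cells, so such a count cannot tell precursors from later B cells. Beside Vpreb1, 6 genes of a list called pre-B receptor genes below were counted in every cell, namely Vpreb2, Vpreb3, Igll1, Cd79a, Cd79b and Ighm. Vpreb3 is on the list but is not part of the surrogate light chain. At least 3 of them were found in 33 of 173 chosen cells (19.1%; 13.5 to 25.7) of the KO-labelled library and in 2 of 166 (1.20%; 0.146 to 4.28) of the WT-labelled library, although the WT-labelled cells were the deeper ones. Of the 33 KO-labelled cells, 19 belonged to the subset with Ebf1 only, 9 to Dntt with Vpreb1 or Ebf1 and 5 to Vpreb1 without Dntt. None of the 106 KO-labelled and none of the 135 WT-labelled cells with Dntt alone held 3 of the 6. Neutrophil-like cells that were not chosen should lack these genes and gauge free RNA in the droplets. They held 3 or more in 2 of 2364 KO-labelled cells (0.0846%) and 2 of 1133 WT-labelled cells (0.177%). Median depths of those cells were 4403 and 12339 UMIs. Among other marrow cells, 37 of 6221 KO-labelled (0.595%) and 45 of 5091 WT-labelled cells (0.884%) held 3 or more. Hlf cells that were not chosen did so in none of 343 KO-labelled and 6 of 741 WT-labelled cells (0.810%). In the WT-labelled library both shares lay within the counting interval of the chosen cells. The chosen cells are therefore called below by their rule genes and not by a stage.

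**Figure D2:**
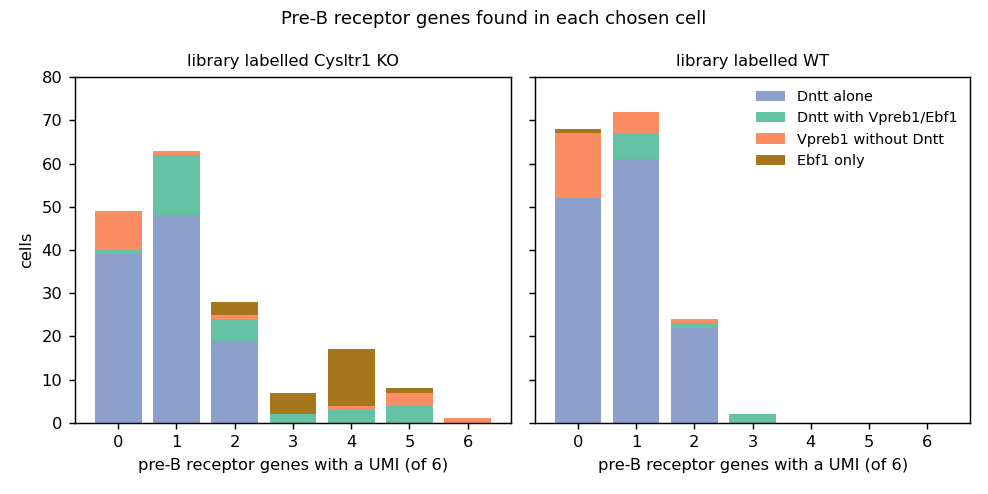
Number of chosen cells (vertical axis) by how many of 6 pre-B cell receptor genes other than Vpreb1 had a UMI in the cell (horizontal axis), for the library labelled Cysltr1 KO (left) and the library labelled WT (right), coloured by rule-gene subset. In the KO-labelled library 33 cells lie at 3 or more genes, most of them with Ebf1 only; in the WT-labelled library 2 do.

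Promoters of 2 rule genes, Dntt and Vpreb1, and of 3 genes of the pre-B receptor list, Vpreb3, Igll1 and Cd79a, are printed. They show which of these genes carry an E-box, the site class bound by E proteins such as TCF3. The letters searched were CAGGTG on both strands and, for the EBF1 half-site pair, CCCNNGGG; matches are in capitals. The stretches come from RefSeq with build GRCm38.p6 and run from 250 bases before the start of the gene to 50 after it, 5′ to 3′ on the strand of the gene. The start is that of RefSeq; GENCODE starts Vpreb1 and Vpreb3 upstream of the printed stretch and Cd79a inside it.
Dntt (chr19:41029025-41029324, plus strand): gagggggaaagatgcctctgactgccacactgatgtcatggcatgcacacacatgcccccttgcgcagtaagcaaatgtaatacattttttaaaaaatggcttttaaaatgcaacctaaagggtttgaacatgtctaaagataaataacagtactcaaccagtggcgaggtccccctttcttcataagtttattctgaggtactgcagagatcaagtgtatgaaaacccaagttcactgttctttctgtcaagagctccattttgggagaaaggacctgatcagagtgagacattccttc
Vpreb1 (chr16:16869206-16869505, minus strand): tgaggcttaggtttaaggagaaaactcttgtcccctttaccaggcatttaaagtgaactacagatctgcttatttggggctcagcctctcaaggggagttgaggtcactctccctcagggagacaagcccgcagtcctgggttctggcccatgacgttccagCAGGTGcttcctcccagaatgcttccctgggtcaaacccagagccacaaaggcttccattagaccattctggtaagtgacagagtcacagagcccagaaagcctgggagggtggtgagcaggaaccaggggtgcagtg
Vpreb3 (chr10:75948050-75948349, plus strand): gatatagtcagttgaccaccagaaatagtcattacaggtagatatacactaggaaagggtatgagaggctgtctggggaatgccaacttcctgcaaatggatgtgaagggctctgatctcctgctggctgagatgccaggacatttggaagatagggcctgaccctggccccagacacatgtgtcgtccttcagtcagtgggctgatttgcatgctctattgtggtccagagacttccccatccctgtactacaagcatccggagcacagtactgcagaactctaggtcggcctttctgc
Igll1 (chr16:16863936-16864235, minus strand): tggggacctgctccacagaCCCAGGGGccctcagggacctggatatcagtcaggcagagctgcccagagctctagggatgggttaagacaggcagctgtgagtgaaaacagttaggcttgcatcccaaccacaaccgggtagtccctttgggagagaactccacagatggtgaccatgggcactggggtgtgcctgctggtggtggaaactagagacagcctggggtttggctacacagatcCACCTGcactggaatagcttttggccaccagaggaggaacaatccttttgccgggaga
Cd79a (chr7:24897247-24897546, plus strand): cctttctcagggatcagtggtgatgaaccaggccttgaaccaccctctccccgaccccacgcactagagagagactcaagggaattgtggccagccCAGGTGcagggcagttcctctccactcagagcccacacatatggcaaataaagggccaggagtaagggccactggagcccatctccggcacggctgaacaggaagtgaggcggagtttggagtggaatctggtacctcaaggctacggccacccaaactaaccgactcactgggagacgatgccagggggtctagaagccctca
The E-box letters stood in 6 of 14 promoters of the 13 genes looked up, those of Vpreb1, Vpreb2, Igll1, Cd79a, Rag1 and Blnk, against 20.2% of 32851 promoters of the same length. Both Ebf1 promoters and those of Dntt, Vpreb3, Pax5, Rag2, Il7r and Flt3 held neither motif. CCCNNGGG stood in the promoter of Igll1 alone of the 14, against 13.7% of all. A match is a description of letters, and a window without one says nothing about the factor.

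Vpreb3 had 154.6 CPM (158 UMIs in 29 cells) in chosen cells of the KO-labelled library and no UMI in those of the WT-labelled library. That was at least 105-fold higher against the limit of 3 UMIs. Igll1, the gene of lambda 5, had 49.9 CPM (51 UMIs in 12 cells) in the KO-labelled library and again no UMI in the WT-labelled one, at least 33.8-fold higher. Both genes were found in Vpreb1-positive or Ebf1-positive cells only, within the chosen set. Vpreb1, a rule gene, had 53.8 CPM in the KO-labelled and 12.8 CPM in the WT-labelled library, and 15 of 21 KO-labelled and 24 of 25 WT-labelled cells with it held a single UMI. Its count is uncertain, since the coding transcripts of Vpreb1 and Vpreb2 are 96.5% identical and reads can be split between them. The first exon of the non-coding Vpreb1 transcripts (chr16:16870688-16870843, mm10) also overlaps Top3b on the opposite strand by 108 bases. A Vpreb1 UMI was seen in 0.381% of KO-labelled and 0.353% of WT-labelled neutrophil-like cells, and a Dntt UMI in 0.423% and 0.883%. Within the limit for neutrophil-like cells lay 12 KO-labelled and 4 WT-labelled chosen cells, which are left out of that group. The rule itself thus took out cells with these UMIs. These shares, at the depths given above, gauge free RNA only in cells that the rule left outside. Beside them, 16 of 6394 kept KO-labelled and 21 of 5257 kept WT-labelled cells were chosen cells with Vpreb1 but no Dntt.

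For the signalling pair, Cd79a stood at 129.2 CPM (132 UMIs in 32 cells) in the KO-labelled library and 8.86 CPM (18 UMIs in 4 cells) in the WT-labelled library, a ratio of 14.6 (8.87 to 25.4). Of those 18 UMIs, 15 lay in a single cell. Cd79b had 121.3 CPM in the KO-labelled and 33.5 CPM in the WT-labelled library, a ratio of 3.62 (2.68 to 4.95). The heavy chain constant gene Ighm had 340.5 CPM in 113 cells of the KO-labelled library and 111.3 CPM in 69 cells of the WT-labelled library, a ratio of 3.06 (2.58 to 3.63). In other marrow cells Ighm went the other way, with 133.5 CPM in the KO-labelled and 474.0 CPM in the WT-labelled library.

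Among recombination genes the RAG pair differed most between the libraries. Rag1, a subunit of the nuclease that cuts at V(D)J sites, had 41.1 CPM (42 UMIs in 22 cells) in the KO-labelled library and 0.985 CPM (2 UMIs) in the WT-labelled library, a ratio of 41.7 (10.9 to 356). Its partner Rag2 had 24.5 and 5.42 CPM, a ratio of 4.52 (2.14 to 10.2) of the KO-labelled to the WT-labelled library. Dntt, a rule gene, had 1266 CPM in 135 KO-labelled cells and 402.8 CPM in 144 WT-labelled cells. Ubiquitous members of the joining machinery differed little, with Prkdc, the gene of the DNA-dependent protein kinase, at 21.5 CPM in the KO-labelled and 21.2 CPM in the WT-labelled library. Of the 11 recombination genes with at least 30 UMIs, Rag1, Rag2 and the rule gene Dntt were at least 2-fold higher in the KO-labelled library and none was lower, where over all genes 1.8% were higher and 2.71% lower.

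Rag1 was most frequent where Dntt and an Ebf1 or Vpreb1 UMI met, in 15 of 29 such cells of the KO-labelled library, against 6 of 106 with Dntt alone. That subset had the highest Dntt level as well, 2502 CPM in the KO-labelled and 2213 CPM in the WT-labelled library, against 1132 and 397.0 CPM in cells with Dntt alone. Blnk, an adaptor of pre-B receptor signalling, had 272.4 CPM there in the KO-labelled and 83.9 CPM in the WT-labelled library. The 22 KO-labelled cells with Ebf1 only had no UMI of Dntt by definition and none of Flt3, Cd34 or Hlf. They held 3455 CPM of Vpreb3, 2408 CPM of Cd79a, 3211 CPM of Ighm and 314 CPM of Pax5, the factor that fixes B lineage identity. Their median depth was 1072 UMIs, the lowest of the subsets, so their summed counts rest on 28651 UMIs. The WT-labelled cell of this kind had no UMI of any of the 6 receptor genes and held 13 Cxcl12 UMIs, the chemokine gene of marrow stroma.

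**Figure D3:**
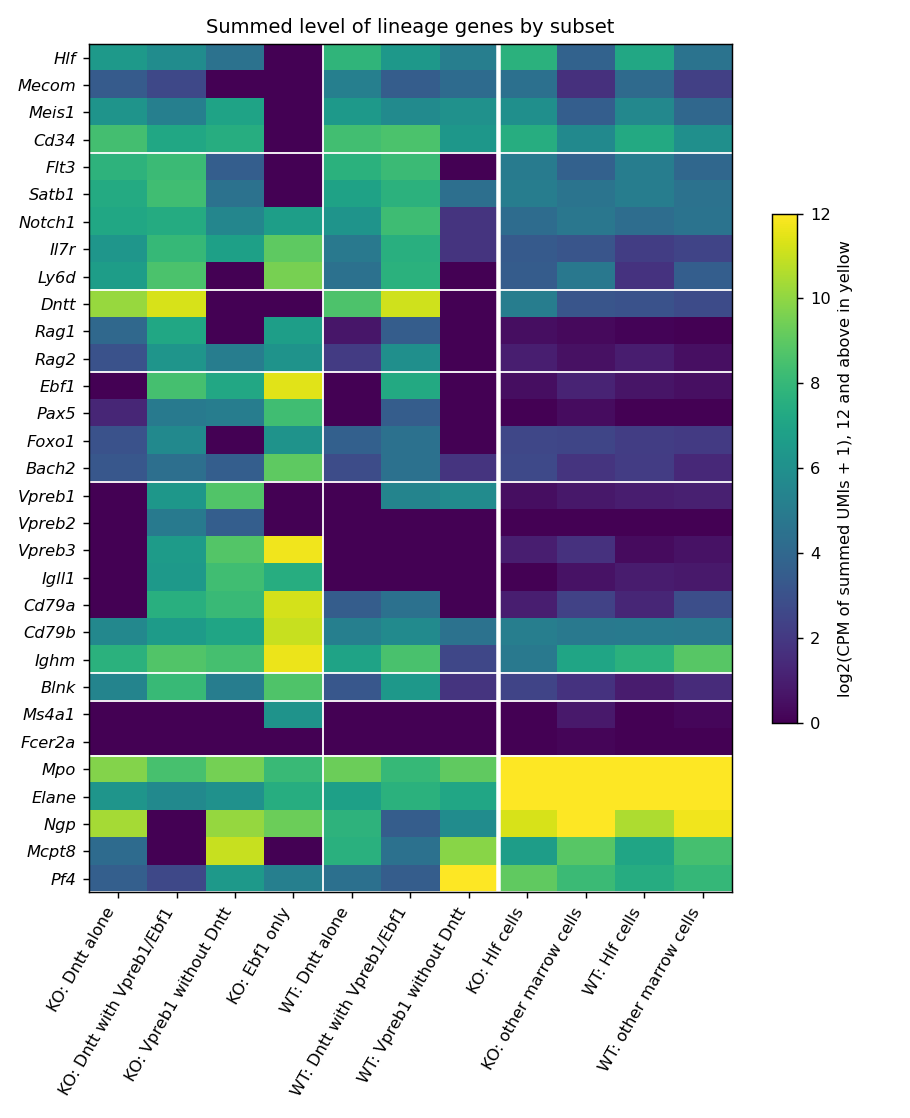
Level of lineage genes as log2 of CPM of summed UMIs plus 1 (colour, with 12 and above in yellow) in rule-gene subsets of the chosen cells, then in Hlf cells and other marrow cells, for the library labelled KO and the library labelled WT. Receptor genes reach their highest levels in the KO-labelled subsets with Ebf1 or Vpreb1, while Pf4 is highest in the WT-labelled cells with Vpreb1 but no Dntt; the single WT-labelled cell with Ebf1 only is left out.

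Transcription factors of the B lineage were compared between the libraries as well. Ebf1, a rule gene, had 159.5 CPM in 56 KO-labelled cells and 8.37 CPM in 8 WT-labelled cells. Pax5 had 18.6 CPM (19 UMIs) in the KO-labelled library and 0.492 CPM (1 UMI) in the WT-labelled library. Bach2, which restrains plasma cell fate, had 25.4 and 5.91 CPM, a ratio of 4.31 (2.10 to 9.37) of the KO-labelled to the WT-labelled library. Factors shared with multipotent cells were close, as Tcf4 with 133.1 CPM in the KO-labelled and 131.0 CPM in the WT-labelled library and Bcl11a with 117.4 and 116.2 CPM show. Of the 13 factors with at least 30 UMIs, the rule gene Ebf1, Bach2 and Irf8 were at least 2-fold higher in the KO-labelled library and none lower, against the same 1.8% and 2.71% of all genes. The log2 ratio of Irf8 was 1.04, and −0.065 with thinning before the choice. In cells with Dntt alone 0 of 8 factors passed 2-fold, against 1.36% of all genes higher and 2.89% lower.

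Cells with Vpreb1 but no Dntt held different transcripts in the 2 libraries. How far free RNA gave their Vpreb1 UMIs was not tested. In the KO-labelled library these 16 cells had 443 CPM of Vpreb3 and 321 CPM of Igll1, carried by 5 and 6 cells. The 21 WT-labelled cells held no UMI of Vpreb3, Igll1, Cd79a or Ebf1. They held instead 7037 CPM of Pf4, a platelet chemokine, in 7 cells and 939.7 CPM of Mcpt8, a basophil protease, in 6 cells. The KO-labelled cells had Mcpt8 too, at 2050 CPM but in 2 cells. Across chosen cells of the KO-labelled library the gene whose log CPM went most with Vpreb1 was Igll1 (Pearson r = 0.777 over 173 cells), whereas in the WT-labelled library it was Hdc (r = 0.526 over 166 cells), the histidine decarboxylase gene of basophils. These are descriptions over cells of 1 library each and share depth.

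Immunoglobulin variable segments were seen widely. An Ighv UMI was found in 46.8% of KO-labelled and 33.1% of WT-labelled chosen cells, against 5.54% and 11.3% of Hlf cells, and 6.94% and 13.3% of neutrophil-like cells. Within the subset of Dntt with Vpreb1 or Ebf1 it was found in 23 of 29 KO-labelled and 8 of 9 WT-labelled cells. Light chain segments of the kappa class were found in 13 of 22 KO-labelled cells with Ebf1 only, against 17 of 106 with Dntt alone and 7.28% of neutrophil-like cells. In the WT-labelled library Igkv UMIs were seen in 47 of 135 cells with Dntt alone (34.8%), below the 45.5% of neutrophil-like cells that gauge free RNA. Of the 626 UMIs of the kappa constant gene Igkc in WT-labelled chosen cells, 611 lay in 1 cell.

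Set against the other kept marrow cells of the same library, the chosen cells had high levels of early lymphoid and multipotent genes and low levels of granule protease genes. Of 12401 genes with at least 30 UMIs, 11.9% were 2-fold or more higher and 9.73% lower in the KO-labelled library; of 13107 in the WT-labelled library, 10.7% were higher and 6.01% lower. Both libraries together had 723 genes (5.88%) past 2-fold upward and 529 (4.3%) downward. Since the rule chose the cells by their transcripts, these values describe the choice. Early lymphoid genes were at least 2-fold higher for 10 of 12 measured in the KO-labelled library (median log2 ratio 2.41, against 0.17 over all genes) and for 9 of 11 in the WT-labelled library (1.58, against 0.21). Genes of granulocyte and monocyte progenitors were at least 2-fold lower for 7 of 10 in each library, with medians of −2.61 in the KO-labelled and −2.85 in the WT-labelled library; Elane and Prtn3 are rule genes among them.

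Flt3, the receptor of the lymphoid cytokine FLT3 ligand, had 203.5 CPM in chosen and 12.4 CPM in other cells of the KO-labelled library, and 165.4 and 14.9 CPM in the WT-labelled library. Satb1, a chromatin organizer of early lymphoid cells, had 174.2 and 23.6 CPM in the KO-labelled and 102.9 and 21.7 CPM in the WT-labelled library. Both genes were thus at least 2-fold higher in chosen cells of either library. Further genes named by the rule as highest in both libraries were Myl10, a myosin light chain gene, with a smaller log2 ratio of 3.71, and Aff3 (2.77), Il12a (2.62), Gpr171 (2.56), Msi2 (2.52), Smad7 (2.35), Sox4 (2.35), Meis1 (2.35), Hoxa9 (2.22), Cd34 (2.19) and Egfl7 (2.18). Msi2, Meis1, Hoxa9 and Cd34 are known from stem and multipotent cells. The lowest beside the rule genes were Ms4a3 (−5.09), a marker gene of granulocyte and monocyte progenitors, Fcnb (−4.69), Cebpe (−4.45), a factor of granulocyte maturation, and Igsf6 (−3.97). Ms4a3 had 19.6 CPM in chosen and 982.7 CPM in other cells of the KO-labelled library, and 35.9 and 1258 CPM in the WT-labelled library.

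The libraries parted in the pre-B receptor list, among others. In the KO-labelled library all 6 genes with enough UMIs exceeded 2-fold in chosen over other marrow cells, with a median log2 ratio of 4.83. In the WT-labelled library 1 of 6 was higher (Vpreb1, a rule gene), 1 was lower (Ighm), and the median was −0.16. The stem cell list showed the reverse order. In it 3 of 10 were at least 2-fold higher in the KO-labelled and 8 of 11 in the WT-labelled library, with medians of 0.53 and 1.67. Megakaryocyte genes parted too. They were at least 2-fold lower for 4 of 5 in the KO-labelled library (median −1.49), against 9.73% of all genes. In the WT-labelled library they were higher for 5 of 5 (median 1.96), against 10.7% of all genes.

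**Figure D4:**
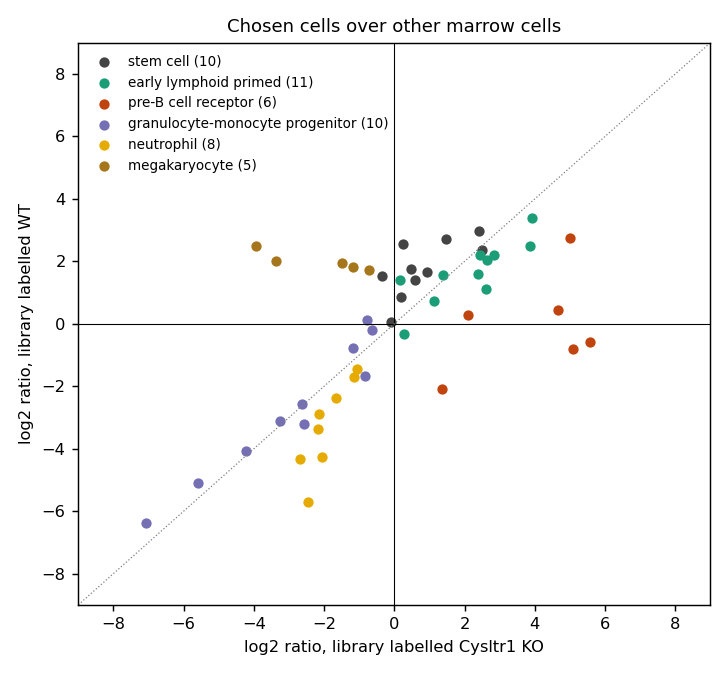
Log2 ratio of chosen over other marrow cells in the library labelled Cysltr1 KO (horizontal axis) and in the library labelled WT (vertical axis) for genes of 6 lists with at least 30 UMIs in each; the dotted line marks equal ratios. Most early lymphoid genes lie high and most progenitor genes low in both, pre-B receptor genes lie to the right, and megakaryocyte genes lie high in the WT-labelled and low in the KO-labelled library.

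The second comparison set chosen cells against kept cells with an Hlf UMI that were not chosen, 343 in the KO-labelled and 741 in the WT-labelled library. Fewer genes differed, with 4.35% at least 2-fold higher and 3.73% lower in the KO-labelled library and 4.62% and 2.95% in the WT-labelled library; 115 genes (1.32%) were higher and 142 (1.63%) lower in both. Early lymphoid genes were at least 2-fold higher for 7 of 10 in the KO-labelled and 6 of 10 in the WT-labelled library. Notch1, a receptor of the T lineage decision, had 137.0 CPM in chosen and 18.1 CPM in Hlf cells of the KO-labelled library, and 70.4 and 18.3 CPM in the WT-labelled library. Il7r, the interleukin 7 receptor chain, had 129.2 and 9.39 CPM in the KO-labelled and 30.03 and 3.47 CPM in the WT-labelled library. Ccl3 and Ccl4, chemokine genes, were also among the highest, with smaller log2 ratios of 1.56 and 1.57. Cd34 differed less, with log2 ratios of 0.65 in the KO-labelled and 0.88 in the WT-labelled library.

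Stem cell genes again differed by library. Against Hlf cells, 5 of 10 stem cell genes were at least 2-fold lower in chosen cells of the KO-labelled library (median −1.15). In the WT-labelled library 2 of 11 were higher and none lower (median 0.59). Hlf, the gene by which the Hlf cells were picked, is among the genes measured in both libraries. Mecom, a factor of long-lived stem cells, had 7.83 CPM in chosen and 20.9 CPM in Hlf cells of the KO-labelled library, and 30.5 and 16.6 CPM in the WT-labelled library. Hlf cells also held many myeloid transcripts. Genes of granulocyte and monocyte progenitors summed to 25264 CPM in KO-labelled and 30101 CPM in WT-labelled Hlf cells. In other marrow cells they summed to 29399.5 and 33439 CPM. Elane, Ms4a3 and Cebpe were the lowest against Hlf cells, with smaller log2 ratios of −6.15, −4.97 and −4.17; the limit on Elane and Prtn3 applied to chosen cells and not to Hlf cells.

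Between the libraries, 150 of 8327 genes (1.8%) were 2-fold or more higher and 226 (2.71%) as much lower in chosen cells of the KO-labelled than of the WT-labelled library. In other marrow cells the shares were 1.21% and 0.682%. All 6 measured pre-B receptor genes were at least 2-fold higher (median 2.86, against −0.03 over all genes), of which Vpreb1 is a rule gene. In other marrow cells 1 of 6 was higher and 1 lower. Early lymphoid genes were higher for 2 of 10, namely Il7r at a ratio of 4.30 (3.15 to 5.93) and Ly6d at 6.63 (4.82 to 9.25), a surface marker of B-biased lymphoid progenitors. Ly6d had 166.4 CPM in 22 cells of the KO-labelled and 25.1 CPM in 4 cells of the WT-labelled library. Cd34 had 280.9 and 285.6 CPM, a ratio of 0.983 (0.851 to 1.13). Of 8 stem cell genes 5 were at least 2-fold lower in the KO-labelled library (median −1.29), among them Hlf at 71.4 CPM in the KO-labelled and 186.6 CPM in the WT-labelled library.

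Cells with Dntt alone differed between the libraries as well. In them 1.36% of 7406 genes reached 2-fold upward and 2.89% downward in the KO-labelled library. Genes of other lineages were among these. Neutrophil genes were at least 2-fold higher for 8 of 8 (median log2 ratio 2.78). Basophil and mast cell genes were lower for 5 of 5 (−3.47), with sums of 35.5 CPM in the KO-labelled and 1228 CPM in the WT-labelled library. Il7r had 78.0 CPM in 28 of 106 KO-labelled cells and 27.5 CPM in 16 of 135 WT-labelled cells. Ly6d had 102.2 CPM in the KO-labelled and 20.9 CPM in the WT-labelled library, carried by 6 and 2 cells. Hlf had 85.1 CPM in 28 KO-labelled cells and 233.5 CPM in 92 WT-labelled cells. Of the stem cell list, 3 of 7 genes were at least 2-fold lower in these cells of the KO-labelled library (median −0.44). Over all chosen cells it was 5 of 8 (median −1.29). Flt3 was at 212.8 and 201.4 CPM and Cd34 at 344.8 and 333.5 CPM in the KO-labelled and WT-labelled cells. With thinning to 2000 UMIs before the choice, the log2 ratio of the KO-labelled to the WT-labelled library was 1.36 for Il7r, 3.52 for Cd79a, 0.80 for Dntt and −1.31 for Hlf over all chosen cells.

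Genes of other lineages differed between the libraries too. Neutrophil genes were at least 2-fold higher in the KO-labelled library for 8 of 8 (median 2.30), and for 5 of 8 (1.04) in other marrow cells. Over all genes 1.8% were higher in chosen cells and 1.21% in other marrow cells. Their summed level in chosen cells was 14558 CPM in the KO-labelled and 3315 CPM in the WT-labelled library, with all 8 genes detected in each. In cells with Dntt alone it was 17652 CPM in the KO-labelled library, with 12441 of the 14877 UMIs. In those of the WT-labelled library it was 2655 CPM, with 4060 of 6733 UMIs. In the 22 KO-labelled cells with Ebf1 only it was 26666 CPM (764 UMIs). In other marrow cells it was 64954 CPM in the KO-labelled and 32057 CPM in the WT-labelled library. S100a9 had UMIs in 34 KO-labelled and 47 WT-labelled chosen cells, the most of the 8 genes in each library; the part of these transcripts in the other results was not tested. Camp, a neutrophil granule gene, had 884 UMIs in 12 KO-labelled cells, 477 of them in 1 cell. Within the limit set for neutrophil-like cells lay 12 KO-labelled and 4 WT-labelled chosen cells, and 2 and 5 within that for basophil-like cells; without all of these Camp and Ltf had under 30 UMIs, while the log2 ratios of Vpreb3, Cd79a and Hlf were 7.24, 3.68 and −1.29. Megakaryocyte genes were at least 2-fold lower in chosen cells of the KO-labelled library for 4 of 4, against 2.71% of all genes. Their summed level was 35.2 CPM in the KO-labelled and 1605 CPM in the WT-labelled library, with Vwf at 0 in the KO-labelled one. Of the 3260 WT-labelled UMIs, 3197 lay in the 21 cells with Vpreb1 but no Dntt. In cells with Dntt alone the sum was 22.7 CPM in the KO-labelled and 40.5 CPM in the WT-labelled library.

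Most of the lowest ratios rested on single WT-labelled cells. One cell held 1165 of 1167 UMIs of Ighg3, an immunoglobulin heavy chain gene, and 1 cell 807 of 829 UMIs of Jchain, the joining chain gene of plasma cells. Of 372 Prg2 UMIs, an eosinophil granule gene, 345 lay in 1 cell, as did 1913 of 2885 Pf4 UMIs and 344 of 346 Ppbp UMIs. Among the highest ratios, all 66 Gzma UMIs, of a cytotoxic granule gene, lay in 1 KO-labelled cell. Myl4, a myosin light chain gene, was spread over more cells, with 97.9 CPM in 29 cells of the KO-labelled and 3.94 CPM in 6 cells of the WT-labelled library, a ratio of 24.8 (12.1 to 59.1). In other marrow cells Myl4 had a log2 ratio of −0.02.

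**Figure D5:**
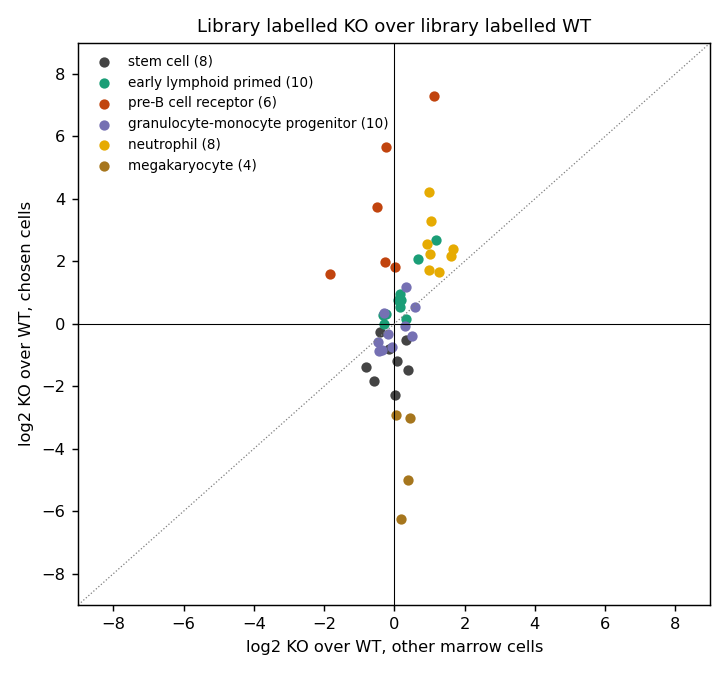
Log2 ratio of the library labelled Cysltr1 KO over the library labelled WT in other marrow cells (horizontal axis) and in chosen cells (vertical axis) for genes of 6 lists with at least 30 UMIs; the dotted line marks equal ratios. Pre-B receptor genes lie high and megakaryocyte genes low in chosen cells while lying near 0 or scattered in other cells, and neutrophil genes are higher in both.

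Markers of mature B and T cells were compared too. The mature B list of 10 genes summed to 167.3 CPM in KO-labelled and 105.9 CPM in WT-labelled chosen cells, against 278.7 and 108.1 CPM in other marrow cells. In the 22 KO-labelled cells with Ebf1 only it was 2269 CPM (65 UMIs), of which Cd74, H2-Ab1 and H2-Aa, genes of antigen presentation, gave 25, 15 and 14 UMIs. Ighd, the delta heavy chain gene, had 7 UMIs in KO-labelled and none in WT-labelled chosen cells. Ms4a1, the gene of CD20, had 2 UMIs in the KO-labelled and none in the WT-labelled chosen cells, and Fcer2a and Cr2 had none in either. The T cell list summed to 74.4 CPM in the KO-labelled and 41.9 CPM in the WT-labelled library over 15 genes, against 64.1 and 28.9 CPM in other marrow cells, with Ptcra, the pre-T receptor chain gene, and Trbc2 at 0 in both. Genes of the leukotriene pathway summed to 591.1 and 528.8 CPM, mostly Alox5ap, the activating protein of 5-lipoxygenase, at 433.5 CPM in the KO-labelled and 410.1 CPM in the WT-labelled library.

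Cell cycle genes were compared at equal depth. After thinning to 2000 UMIs, a UMI of the proliferation marker Mki67 was seen in 33.3% (25.7 to 41.7) of 144 KO-labelled and 21.5% (15.4 to 28.6) of 163 WT-labelled chosen cells, intervals that overlap. In KO-labelled cells the share was 24.5% of 102 with Dntt alone, 13 of 26 with Dntt and Vpreb1 or Ebf1, and 9 of 14 with Vpreb1 but no Dntt. In WT-labelled cells it was 21.8% of 133, 1 of 9 and 5 of 21. Only 2 of the 22 KO-labelled cells with Ebf1 only were deep enough to enter, and 1 of them had it. Neutrophil-like cells had it in 18.5% of KO-labelled and 22.9% of WT-labelled cells. Other marrow cells had it in 28.1% and 28.2%, and Hlf cells in 23.7% and 25.1%.

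Likeness across chosen cells was measured by Pearson correlation of log CPM over all 339 cells. Ebf1 went most with Vpreb3 (r = 0.816), Cd79a (0.767) and Ighm (0.689). Dntt went most with Satb1 (0.562), H2afy (0.561) and Flt3 (0.539), and Vpreb1 with Igll1 (0.716) and then Pde2a (0.374). Within the KO-labelled library Ebf1 went most with Vpreb3 (0.825) and Dntt with H2afy (0.645). Within the WT-labelled library, where Vpreb3 had no UMI, Ebf1 went most with Cnn3 (0.699) and Dntt with Ighm (0.625). Points share library, depth and the choice itself, so these values carry no test.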

How the data were processed

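The deposited matrices hold whole-number UMI counts per gene and barcode for 32285 genes. Mouse build mm10 and Cell Ranger 6.0.0 are given in the submitters' processing notes, while per the file headers the version was 6.1.0. Since the labels' protocols list kits for the 5′ end and, as v3, for the 3′ end, it is open which end was counted. Strand and overlap handling are not given in the sources used here.

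Kept barcodes had 300 or more genes, 500 or more UMIs and no more than 10% mitochondrial UMIs; doublets were left in, and removed in an alternative at 0.8% per 1000 barcodes. UMIs were summed per library and group and expressed as CPM, counts per 1e6 UMIs of the group. Log2 ratios carry a pseudocount of 1 CPM and were taken for genes with at least 30 UMIs over the groups compared; a gene counts as higher or lower at 2-fold. Where both libraries are named together, the ratio is the smaller of the 2. Intervals (95%) are exact Poisson or Clopper-Pearson, and a group without UMIs was set to 3 UMIs; they cover counting error only. UMI totals were 47481894 and 75873784 in the KO-labelled and WT-labelled marrow libraries. Neutrophil-like cells had at least 2% of UMIs from S100a8, S100a9, Ngp, Camp and Ltf, and basophil-like cells at least 0.5% from Mcpt8 and Prss34. Chosen cells were left out of both groups.

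Named genes were the 20 highest and 10 lowest against other cells, and the 10 highest and 10 lowest against Hlf cells, by the smaller ratio with at least 50 CPM in both libraries. Between libraries they were the 10 highest and 10 lowest at least 1.5-fold apart without overlap of intervals. Members of gene lists (275 of 276 genes matched) could be named too, but not sex-linked or provisional genes, receptor segments, or genes of haemoglobin, ribosomes and mitochondria. Cells and lists were chosen with earlier results of these data known. Single values of some list members are not reported here. Calculations were tested on simulated counts. Python 3.11.15, numpy 2.4.6, scipy 1.17.1 and pandas 2.3.3 were used.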

Additional observations from a re-analysis of the deposited data

Results flagged for a closer look

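Ighm went opposite ways in the 2 libraries when chosen cells were set against other marrow cells, with a log2 ratio of 1.34 in the library labelled Cysltr1 KO and −2.08 in the library labelled WT. It was seen in 113 KO-labelled and 69 WT-labelled chosen cells. The difference was not tested.

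The same rule, applied to libraries outside the marrow comparison, picked 1565 spleen cells of the library labelled KO and 1148 of that labelled WT, of which 1533 and 1124 were chosen by Ebf1 only. In tumor it picked 164 KO-labelled and 302 WT-labelled cells, of which 143 and 258 by Ebf1 only, and no picked tumor cell of either library had Dntt.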

How the results depend on the processing

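No paired analysis was possible because each genotype had 1 marrow library and no replicate numbers are shared. Thinning to 2000 UMIs before the choice gave shares of 1.78% in the library labelled KO and 1.61% in that labelled WT (ratio 1.11), and stricter rule genes 1.81% and 1.77% (ratio 1.03), so the order of the shares turned. Numbers of genes at least 2-fold apart moved most with depth and limits; the cause was not tested. Against other cells, both libraries, they were 861 lower with thinning before the choice, 317 higher and 335 lower with a pseudocount of 5 CPM, and 294 and 283 at 20 CPM or more. Against Hlf cells they were 24 higher and 20 lower with thinning before the choice, 40 and 63 with thinning after it, 188 and 220 with stricter rule genes, 41 and 81 at 100 UMIs, 68 higher with the pseudocount, 242 higher at 1 UMI and 69 higher at 20 CPM. Between libraries they were 62 higher and 37 lower with thinning before the choice, 59 and 77 after it, 53 and 51 at 100 UMIs, 653 and 1018 at 1 UMI, 307 and 367 for the mean over cells, and lower for 127 with stricter rule genes, 132 with the pseudocount and 120 at 20 CPM. Of genes at least 2-fold apart, signs turned for 3: Irf8 (−0.065 with thinning before the choice), Slamf1 (0.59 for the mean over cells) and Hlf against other cells (−3.77 without chosen cells holding it, by construction). Signs also turned for 16 genes with log2 ratios between libraries of at most 0.69 in size, among them Flt3 (−0.14 for the mean over cells), Cd34 and Meis1. Alternatives by subset and the 20 CPM limit were chosen after the data were seen. Between libraries Vpreb3 and Cd79a had positive and Hlf negative log2 ratios under every alternative that gave a value. Pf4 was −0.60 without cells chosen by Vpreb1 alone, against −6.25.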

Other observations

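Genes of the type I interferon response were compared as well. Between the libraries, 2 of 12 were at least 2-fold higher and none lower in chosen cells of the library labelled KO (median log2 ratio 0.68), against 1.8% and 2.71% of all genes, and 6 of 19 were higher in other marrow cells (0.78), against 1.21% of all genes. Of 30 cell cycle genes none passed 2-fold in either direction between chosen cells of the 2 libraries, with a median of −0.18. In cells with Dntt alone 3 of 30 were at least 2-fold lower (median −0.47), against 2.89% of all genes. Ltc4s, the gene of leukotriene C4 synthase, had 8.81 CPM in chosen cells of the KO-labelled and 24.6 CPM in those of the WT-labelled library, a ratio of 0.358 (0.155 to 0.735).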
